A study of Mus musculus with 24 samples.

Results

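PU.1 binding sites were mapped by ChIP-seq, which sequences DNA recovered with an antibody to a protein, in untreated mouse bone marrow cells and in the same kind of cells given vitamin C. The PU.1 lists held 61611 different peaks from untreated cells and 23522 from cells with vitamin C, after 1159 and 259 repeated lines were dropped and the highest score of each interval was kept. These 85133 peaks were all the PU.1 peaks of the series and stood among 365719 peaks in its 10 ChIP lists. The cells had been immortalized with HOXA9 and carried a vector for IDH1 R132H in both groups, so that both share these alterations. Cells grew in DMEM with 10% serum, 6 ng/ml IL-3, 10 ng/ml IL-6 and 20 ng/ml SCF. Vitamin C was brought to 0.345 mM at 0, 24 and 48 h, with harvest at 72 h, and the harvest time of the untreated cells is not given in the labels. Each condition had 1 PU.1 library, so no test between conditions was possible and every value below describes these libraries alone. ChIP depth is unknown, and a difference in depth, in enrichment or in binding between the PU.1 libraries cannot be told apart.

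PU.1, the product of Spi1, is an ETS-family transcription factor required for macrophages, neutrophils and B cells. It binds DNA through a purine-rich sequence centred on GGAA, most strongly when flanking bases match its own preference, and it is found both at promoters and at distal enhancers. In myeloid cells it works with C/EBP, IRF and Runx1 proteins, opens chromatin and is linked to deposition of H3K4me1 at enhancers. H3K4me3 marks active or poised promoters, and H3K27ac marks active promoters and enhancers. Vitamin C is a cofactor that raises the activity of TET enzymes, and mutant IDH1 makes a metabolite that inhibits them.

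The promoters printed here show the sequence under PU.1 peaks and were chosen by peak score among the named genes with a listed PU.1 peak and a GGAAGT match. Each runs from 250 bases before to 50 bases after an annotated start, 5′ to 3′ along the gene, from RefSeq on GRCm38.p6, the assembly also called mm10. Capitals mark GGAAGT, its reverse complement ACTTCC, and the longer GAGGAAGT or its reverse complement ACTTCCTC.
Cd53 promoter, chr3:106790100-106790399, minus strand: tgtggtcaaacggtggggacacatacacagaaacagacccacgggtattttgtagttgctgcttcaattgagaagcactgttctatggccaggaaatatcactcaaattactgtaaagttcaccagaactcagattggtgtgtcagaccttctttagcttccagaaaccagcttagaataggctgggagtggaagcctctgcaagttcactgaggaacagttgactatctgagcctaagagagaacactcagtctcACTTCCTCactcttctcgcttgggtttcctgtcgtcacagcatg
Cd300lf promoter, chr11:115133943-115134242, minus strand: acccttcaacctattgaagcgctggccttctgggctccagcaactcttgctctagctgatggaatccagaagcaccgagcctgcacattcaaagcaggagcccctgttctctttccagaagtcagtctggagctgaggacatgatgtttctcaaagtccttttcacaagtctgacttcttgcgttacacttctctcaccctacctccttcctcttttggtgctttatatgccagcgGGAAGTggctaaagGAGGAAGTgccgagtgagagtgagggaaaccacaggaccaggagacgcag
Fcgr2b promoter, chr1:170976022-170976321, minus strand: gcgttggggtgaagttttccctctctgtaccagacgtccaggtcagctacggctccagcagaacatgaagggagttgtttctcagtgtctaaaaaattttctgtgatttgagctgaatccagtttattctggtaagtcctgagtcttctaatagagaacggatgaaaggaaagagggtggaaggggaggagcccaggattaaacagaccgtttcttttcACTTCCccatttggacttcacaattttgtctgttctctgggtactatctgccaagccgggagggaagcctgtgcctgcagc
Syk promoter, chr13:52596632-52596931, plus strand: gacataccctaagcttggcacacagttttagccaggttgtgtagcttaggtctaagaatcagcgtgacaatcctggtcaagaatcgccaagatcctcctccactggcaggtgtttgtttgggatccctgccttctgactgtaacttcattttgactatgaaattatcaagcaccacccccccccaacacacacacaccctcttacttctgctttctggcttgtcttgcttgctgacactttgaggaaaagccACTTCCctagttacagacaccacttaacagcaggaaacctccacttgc
Tfec promoter, chr6:16898392-16898691, minus strand: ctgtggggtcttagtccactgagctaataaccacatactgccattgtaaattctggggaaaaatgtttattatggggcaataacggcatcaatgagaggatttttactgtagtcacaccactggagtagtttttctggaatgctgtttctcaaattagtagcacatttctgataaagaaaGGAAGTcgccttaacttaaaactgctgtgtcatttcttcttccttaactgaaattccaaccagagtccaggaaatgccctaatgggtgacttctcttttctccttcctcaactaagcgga
Bank1 promoter, chr3:136326017-136326316, minus strand: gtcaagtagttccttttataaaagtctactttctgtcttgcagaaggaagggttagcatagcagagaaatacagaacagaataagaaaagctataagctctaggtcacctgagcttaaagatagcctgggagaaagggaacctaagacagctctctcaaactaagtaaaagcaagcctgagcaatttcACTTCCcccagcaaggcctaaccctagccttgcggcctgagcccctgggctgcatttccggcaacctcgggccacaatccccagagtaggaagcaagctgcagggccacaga
All 6 peaks lay in H3K4me3 of untreated cells and overlapped a peak with vitamin C. Their scores, untreated and then with vitamin C, were 345 and 165 at Cd53, which encodes a leukocyte tetraspanin, and 226 and 96.5 at Cd300lf, which encodes an inhibitory myeloid receptor. They were 150 and 90.0 at Fcgr2b, which encodes the inhibitory IgG receptor, and 50.5 and 44.0 at Syk, a tyrosine kinase downstream of immune receptors. Tfec, a MiT-family transcription factor of macrophages, had 31.3 and 9.78, and Bank1, a scaffold of B cell receptor signalling, had 31.1 and 6.64. All 6 scores were lower with vitamin C, by very different proportions. RNA did not move with them in 1 direction: Cd53 had 142 RPKM untreated and 234 RPKM with vitamin C, whereas Tfec had 9.75 and 2.52 RPKM.

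Of all 21263 annotated promoter windows of this length, 24.8% held GGAAGT on either strand and 3.13% held GAGGAAGT. Among the 19000 windows with no PU.1 peak centre, 20.2% held GGAAGT and 1.94% held GAGGAAGT. Among the 2115 windows with an untreated peak centre, 63.2% held GGAAGT and 13.4% held GAGGAAGT. Both sequences were more frequent under listed PU.1 peaks than in windows without a peak, and Spi1 RNA was present in both libraries, so the files showed nothing against the antibody label. GAGGAAGT was in 30.6% of 458 windows with an untreated peak in the upper 2 score deciles and in 5.95% of 1058 windows with a peak in the lower 5 deciles. CCGGAAGT, letters bound by many other ETS proteins and also holding GGAAGT, was in 4.15% of windows with no peak centre. It was in 13.8% of windows with an untreated peak centre. With score it ran the other way, with 9.61% of the windows in the upper 2 deciles against 16.8% in the lower 5. For comparison, TGTGGT, a Runx1 sequence, was in 15.1% of windows with an untreated peak centre and 15.0% of all windows, and GGGCGG was in 59.5% and 46.2%. A match describes the letters of the window and not a bound site.

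Most peaks listed with vitamin C were also listed in untreated cells, while most untreated peaks had no counterpart. Taking an overlap of at least 1 bp, 22387 vitamin C peaks, 95.2% (94.9 to 95.4%, exact Clopper-Pearson 95% interval, counting error only), met an untreated peak. Conversely, 22257 untreated peaks, 36.1% (35.7 to 36.5%), met a vitamin C peak. That left 39354 peaks in the untreated list only and 1135 in the vitamin C list only. The lists are of unequal length, with 20.6 Mb covered by untreated peaks and 6.89 Mb by vitamin C peaks. When the untreated list was cut to its 23522 highest scores, 68.3% of it met a vitamin C peak and 68.9% of vitamin C peaks met it. At equal length these shares must be close to each other, since nearly every peak meets at most 1 peak of the other list.

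Peak scores are the authors' own values, with no stated definition. In the untreated list the median score was 8.78 (quartiles 4.97 and 17.8) and the highest was 687. With vitamin C the median score was 7.39 (quartiles 4.55 and 16.1) and the highest was 445. Median width was 307 bp untreated and 268 bp with vitamin C. The lowest scores were 1.36 and 1.33. The whole-list medians lay close together, and the difference was larger at shared sites.

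**Figure D1:**
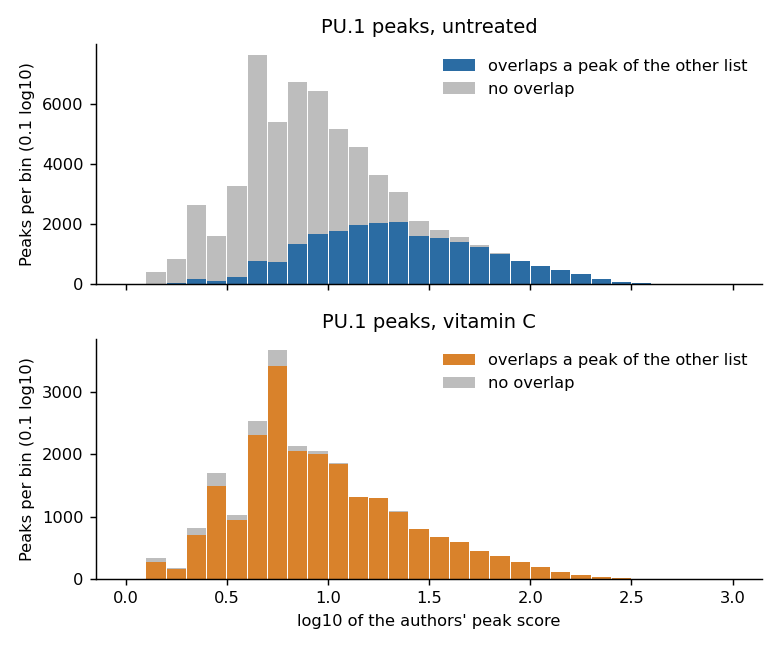
PU.1 peaks per bin of the log10 of the authors' score, untreated above and vitamin C below, with separate vertical scales. Coloured bars are peaks that overlap the other list and gray bars those that do not; gray makes up most of the untreated list at low scores and is a thin layer of the vitamin C list.

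At the 22257 shared sites, the median score was 20.6 untreated and 7.75 with vitamin C. Within a site, the vitamin C score was a median of 0.433 of the untreated score (middle 50% of sites 0.278 to 0.647), and it was the higher score at 2124 sites, 9.54%. Widths followed, with medians of 387 bp and 273 bp. Sites high in one library tended to be high in the other: scores in the 2 libraries had a Spearman correlation of 0.715 across shared peaks, which share their locus and are not independent replicates. In 5 groups of equal size by untreated score, from the lowest up, the median ratio was 0.780, 0.441, 0.348, 0.333 and 0.396. A weak site enters this set only if its vitamin C score reaches the limit of the list, so the selection bears on the high ratio of the lowest group.

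**Figure D2:**
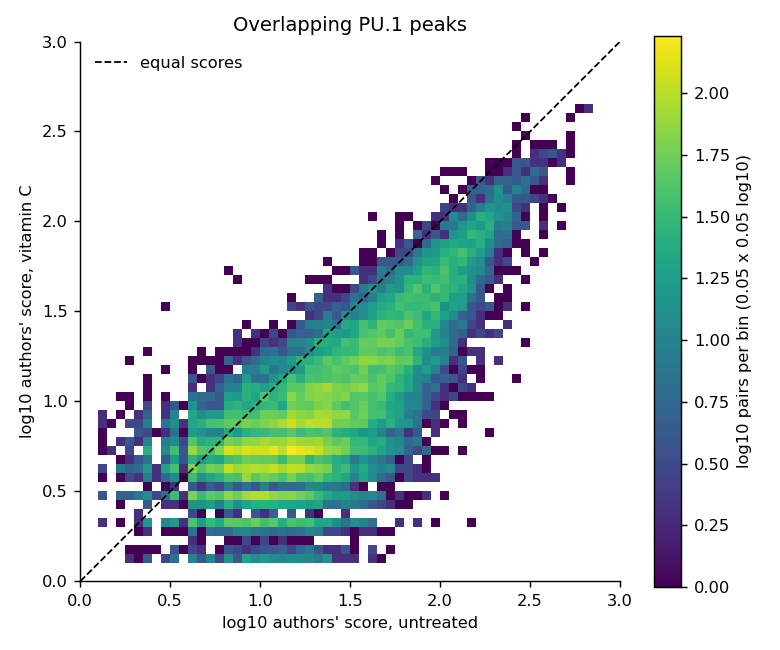
Log10 vitamin C score against log10 untreated score for shared PU.1 peaks, coloured by the log10 number of pairs per bin; the dashed line marks equal scores. Most pairs lie under the line, and 9.54% have the higher score with vitamin C.

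Peaks with high untreated scores were found again far more often. From the lowest to the highest decile of untreated scores, the share that met a vitamin C peak was 6.73, 7.95, 11.1, 16.3, 23.0, 29.0, 38.3, 55.2, 77.7 and 96.0%. The highest decile began at a score of 41.9, and 5914 of its 6161 peaks were shared. All of the 1000 highest untreated peaks met a vitamin C peak, and all of the 1000 highest vitamin C peaks met an untreated one. Of the 5000 highest in each list, 4877 untreated and 4997 vitamin C peaks were found in the other list. Order within the top was less alike, with 59 of the 100 highest untreated peaks meeting 1 of the 100 highest vitamin C peaks, and 713 of the 1000 highest (71.3%).

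**Figure D3:**
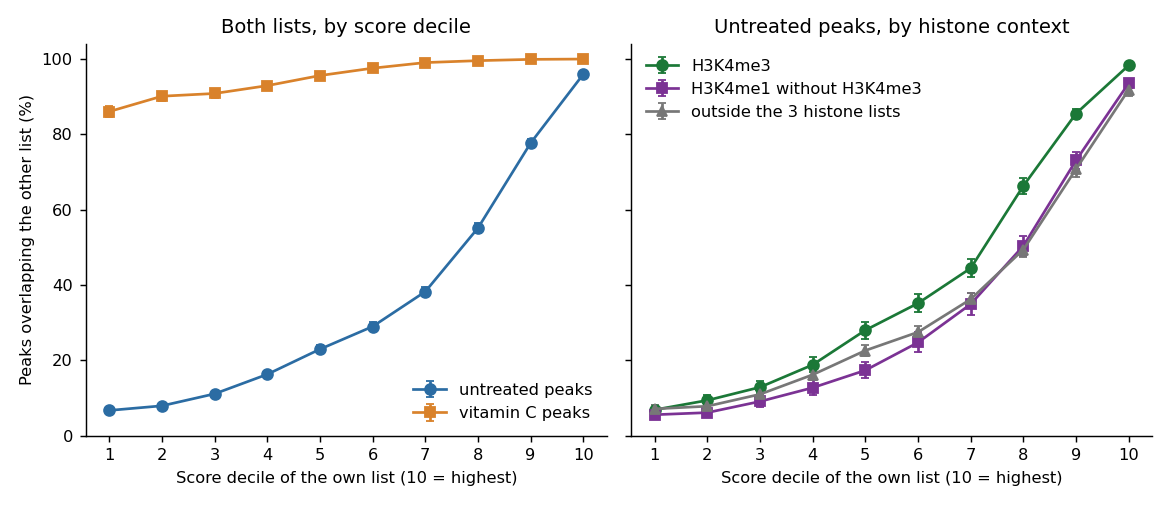
Share of PU.1 peaks that overlap the other list by score decile, for both lists on the left and for untreated peaks by histone context on the right; bars are exact 95% intervals for counting error. On the left the untreated share climbs from 6.73% to 96.0% and the vitamin C share from 86.1% to 100%; on the right peaks in H3K4me3 lie above the other contexts in the upper deciles.

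The strongest sites of the untreated cells carried high scores in both libraries. The highest peak, chr6:52842371-52843237 (mm10), inside the span of Jazf1, a zinc finger gene, scored 687 untreated and 431 with vitamin C. Next came a peak 41332 bp from Slc22a28, a solute carrier gene, with 644 and 442. A peak inside Nnmt, nicotinamide N-methyltransferase, at chr9:48558520-48559345, scored 630 and 445 and ranked first with vitamin C. These 3 sites held the 3 highest ranks in both lists. Not all of the top sites kept their place: a peak 287899 bp from Rnd3 scored 551 untreated and 170 with vitamin C, a ratio of 0.308, and ranked 82 with vitamin C. The others among the 8 highest were 25452 bp from Scel (561 and 248), 9617 bp from Syk (527 and 305), and in Hmga2 (526 and 268) and Mthfd1 (514 and 369). All 8 scored lower with vitamin C.

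Peaks of the untreated list alone were weaker and narrower than shared ones, and few were high. Their median score was 6.44 against 20.6 for shared untreated peaks, and their median width 269 bp against 387 bp. The highest scored 108 and lay 79821 bp from Nucb2, at rank 1514 of its list. It was followed by peaks in Lrba (107), a vesicle trafficking gene, 35314 bp from Plxna1 (107), a semaphorin receptor, and in Ccdc191 (99.5). The next were in F9 (92.3) and Arhgap6 (91.9), both on the X chromosome, in Bank1 (90.0) and 122259 bp from Tent5a (88.1). Of these 8 sites, 5 overlapped none of the 3 histone marks in untreated cells. Bank1 is thus named both for a shared promoter peak and for a stronger peak in its span that the vitamin C list did not hold.

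The 1135 peaks listed with vitamin C only were mostly near the lower limit of the list, with a median score of 4.11 and a median width of 200 bp. The highest, 24.7, was at chr12:69361185-69361454, 3984 bp from Nemf, in H3K4me3 and under a Runx1 peak in both conditions; it ranked 3640 in the vitamin C list. A peak within 1 kb of a start of Hnrnpa2b1, an RNA-binding protein gene, scored 16.3. Of the other 6 among the 8 highest, 1 lay in Ano6 (15.0). The other 5 lay outside genes, with the nearest gene at 154262 bp for Gulp1 (20.5), 31346 bp for Frg1 (18.8), 30864 bp for Ropn1l (16.3), 926408 bp for Bcl11a (15.1) and 175442 bp for Ndst4 (15.0). The peaks nearest Gulp1, Bcl11a and Ndst4 lay under an untreated Runx1 peak and not under one with vitamin C. Those named for Frg1, Ropn1l, Hnrnpa2b1 and Ano6 lay under neither. Of all vitamin C only peaks, 3.61% overlapped untreated Runx1 and 4.76% Runx1 with vitamin C. In all, 4 of the 8 overlapped no histone mark with vitamin C. No vitamin C only peak reached the scores of the highest untreated only peaks.

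Histone context was taken from the H3K4me1, H3K4me3 and H3K27ac lists of the same treatment. Of untreated peaks, 31.5% lay in H3K4me3, 20.4% in H3K4me1 without H3K4me3, and 46.9% outside all 3 lists. With vitamin C, 42.9% lay in H3K4me3, 12.7% in H3K4me1 without H3K4me3, and 41.9% outside. H3K27ac covered 31.0% and 40.5%. By these own-treatment lists, the vitamin C list held relatively more PU.1 peaks in H3K4me3 and fewer in H3K4me1 without H3K4me3, the enhancer-type context. Cutting the untreated list to the length of the vitamin C list gave 40.3% in H3K4me3, 21.9% in H3K4me1 without H3K4me3 and 36.3% outside. H3K27ac then covered 40.1% of untreated peaks. The H3K4me3 and H3K27ac shares thus came close, while the enhancer shares stayed apart with each PU.1 list on its own histone lists. The order outside all 3 lists turned, with 36.3% untreated below the 41.9% with vitamin C.

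The enhancer shares followed the histone list used. On the untreated histone lists, H3K4me1 without H3K4me3 held 20.4% of untreated and 20.0% of vitamin C PU.1 peaks. On the vitamin C histone lists it held 13.04% and 12.7%. Set on the same histone lists, the PU.1 lists thus hardly differed in this share. At the 22257 shared untreated peaks, H3K4me1 of untreated cells covered 46.2% and H3K4me1 of vitamin C cells 30.3%. H3K4me3 covered 42.6% and 44.1%, and H3K27ac 42.4% and 41.6%, of the same positions. H3K4me1 was thus the mark whose list differed most at these PU.1 sites. Pooled over scores, the share that kept H3K4me1 was similar where the PU.1 peak itself was shared and where it was not. Of untreated PU.1 peaks in H3K4me1, 45.7% of the shared and 44.8% of the untreated only peaks also overlapped H3K4me1 with vitamin C. For H3K4me3 these shares were 95.5% and 94.5%, and for H3K27ac 93.6% and 91.7%. By score the H3K27ac shares had no fixed order, with 93.4% for shared and 92.0% for untreated only peaks in decile 8, 93.6% and 88.1% in decile 9, and 93.8% and 96.1% in decile 10. For H3K4me1 they were 47.4% and 42.1%, 46.3% and 45.8%, and 45.6% and 39.1%, with overlapping intervals. In decile 1 the H3K4me1 order was the reverse, 42.9% and 47.3%. For H3K4me3, deciles 8 and 9 had 95.7% and 93.4%, and 94.7% and 94.7%. Decile 10 had 95.6% (94.8 to 96.2%) and 84.5% (72.6 to 92.7%), the latter over 58 peaks.

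**Figure D4:**
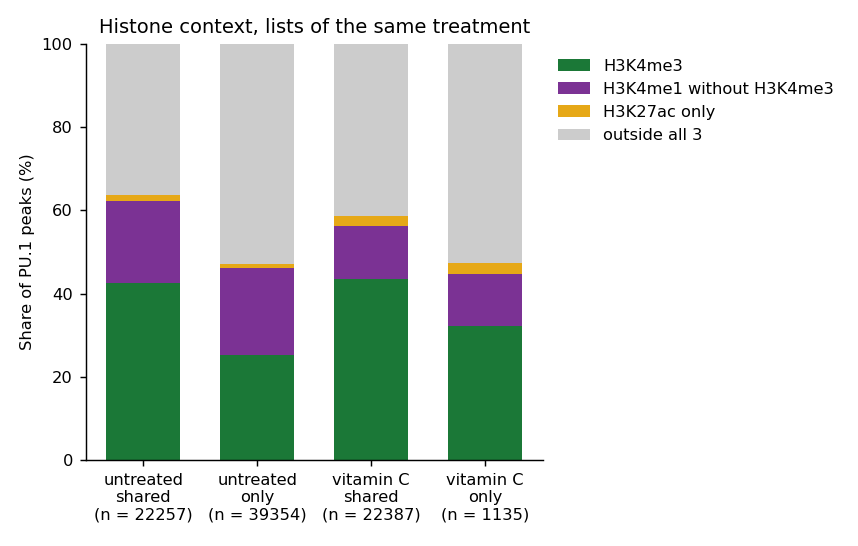
Share of PU.1 peaks by histone context of the same treatment, as stacked bars, for shared and unshared peaks of each list. H3K4me3 holds 42.6% of shared untreated peaks and 25.2% of untreated only peaks, of which 52.9% lie outside all 3 lists.

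Within each of the upper 3 score deciles, untreated peaks in H3K4me3 were found again more often than the others. In decile 8, 66.3% (64.2 to 68.4%) of peaks in H3K4me3 were shared, against 50.4% (47.7 to 53.1%) in H3K4me1 without H3K4me3 and 49.4% (47.6 to 51.3%) outside. In decile 9 the shares were 85.5, 73.1 and 70.8%, and in decile 10 they were 98.3, 93.6 and 91.9%. Score ratios had the same order. Over the 10702 shared peaks of the upper 2 deciles the median ratio was 0.362, with 0.391 in H3K4me3 (5665 peaks), 0.332 in H3K4me1 without H3K4me3 (2405) and 0.307 outside (2445). H3K4me3 stood above the other 2 contexts in all 3 deciles. The intervals of those other 2 overlapped in each decile. In decile 9 they were 70.8 to 75.4% in H3K4me1 without H3K4me3 and 68.7 to 72.8% outside. In decile 10 they were 92.2 to 94.8% and 90.2 to 93.4%. Scores were not matched within a decile. Shared peaks of the upper 2 deciles had median untreated scores of 50.4 in H3K4me3, 45.4 in H3K4me1 without H3K4me3 and 37.2 outside.

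Position relative to genes gave a like order in deciles 8, 9 and 10. Within 1 kb of a start site lay 7.57% of untreated and 8.30% of vitamin C peaks, and within 50 kb lay 52.7% and 56.4%. In decile 8, 67.3% of peaks within 1 kb of a start were shared against 54.2% of those farther away, in decile 9 86.6% against 76.9%, and in decile 10 98.8% against 95.7%. As few as 21.8% of untreated peaks in H3K4me3 lay within 1 kb of an annotated start, 4220 of 19396, so that context was not made of annotated promoters alone. Gene spans held 49.1% and 50.6% of the peaks. The GAGGAAGT sequence did not separate the classes within score deciles 8 and 9. It was in 20.5% (16.6 to 24.9%) of 380 promoter windows with a shared peak of these deciles. With an untreated only peak it was in 19.4% (12.3 to 28.4%) of 103.

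Runx1, a partner of PU.1 at myeloid enhancers, had far shorter lists, 3908 peaks untreated and 6250 with vitamin C, and its list was the longer one with vitamin C. Untreated Runx1 peaks overlapped 2.84% of untreated PU.1 peaks. Of these 1752 PU.1 peaks, 49.7% were shared, against 35.7% of the others. In each of deciles 7 to 10 they were also shared more often than others of the same decile. Lower deciles were not compared. The shares were 48.1% against 38.0% in decile 7 and 73.4% against 54.7% in decile 8. They were 89.5% against 77.3% in decile 9, and 99.4% against 95.8% in decile 10. Seen from Runx1, 44.5% of its untreated peaks lay under untreated PU.1 and 22.4% under vitamin C PU.1, and 37.8% and 18.2% of its vitamin C peaks did. Of the regions listed from bisulfite sequencing, whose direction is not stated, the deMRs touched 1.51% of untreated PU.1 peaks. They touched 1.57% of shared vitamin C peaks and 31 of the 1135 vitamin C only peaks, 2.73% (1.86 to 3.85%). Untreated PU.1 covered 14.3% of the 6496 deMRs and vitamin C PU.1 5.88%, while for the 8374 iMRs the shares were 1.41% and 0.442%. Regions listed from hydroxymethylated DNA touched 0.742% of shared and 0.529% of vitamin C only peaks. For deMRs listed from capture of methylated DNA the shares were 0.384% and 0.352%.

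The difference in peak number was not even over the chromosomes. Vitamin C peaks numbered 0.307 to 0.416 of untreated peaks on the autosomes other than chromosome 17 and on X, and 0.467 on chromosome 17. In the upper 2 deciles, the median score ratio was 0.443 on chromosome 17 over 508 shared peaks, and 0.297 to 0.401 on the other autosomes and X. Y, with 117 untreated and 30 vitamin C peaks and 7 shared peaks in these deciles, had a ratio of 0.253. The higher ratio held in each context, with 0.467 against 0.390 on the other autosomes in H3K4me3, 0.382 against 0.331 in H3K4me1 without H3K4me3, and 0.391 against 0.304 outside. In 10-Mb bins along chromosome 17 it lay between 0.370 and 0.552, the latter from 6 peaks. Of the 5 peaks of the top untreated decile with the highest ratios, 3 lay on chromosome 17: 367712 bp from Arid1b (44.6 untreated and 106 with vitamin C), 11269 bp from Rsph3b (95.3 and 168) and 19972 bp from Msh6 (47.5 and 79.6). The other 2 were 1510 bp from Sycn (62.3 and 106) and in Bcl2l15 (109 and 181).

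RNA from chromosome 17 was also higher with vitamin C. The median log2 change of its 542 measured genes was 0.29, and those of the other 19 chromosomes ran from −0.10 to 0.08. Above 0 were 445 genes, 82.1% (78.6 to 85.2%), against 42.9% of 9477 genes elsewhere. Few of these changes were large, with 3.51% of chromosome 17 genes at least 2-fold higher. The bin from 80 to 90 Mb had both the lowest PU.1 ratio and the lowest RNA median, 0.03 over 34 genes. Histone peaks on chromosome 17 gave count ratios of 0.788 for H3K4me1, 1.08 for H3K4me3 and 0.960 for H3K27ac, and Runx1 gave 1.56. Each lay within the range of the other autosomes. These ranges were 0.746 to 0.847, 1.03 to 1.11, 0.935 to 1.02 and, for Runx1, 1.39 to 1.94. What makes chromosome 17 stand apart was not tested. Leaving out Y, the X chromosome stood at the other end for PU.1, with a count ratio of 0.307 and a score ratio of 0.297, while its median RNA log2 change was −0.01. The other lists also gave X different count ratios from chromosome 17, with 0.449 for H3K4me1, 0.978 for H3K4me3, 0.888 for H3K27ac and 2.74 for Runx1.

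**Figure D5:**
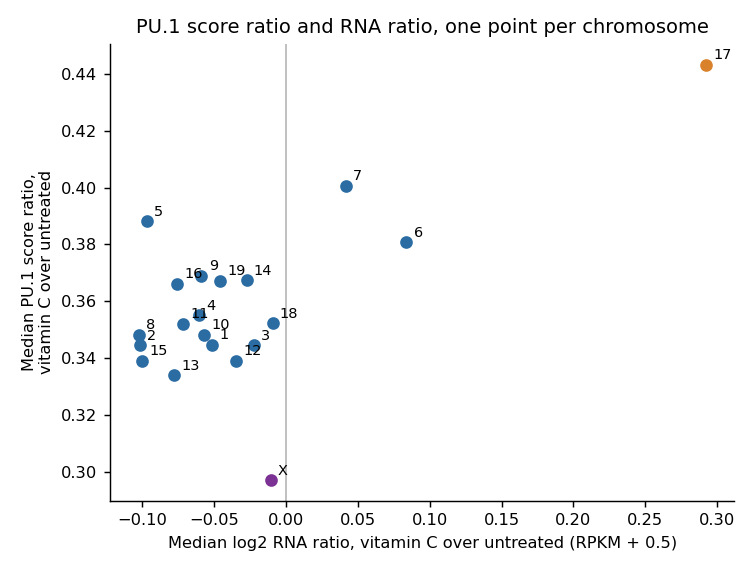
Median PU.1 score ratio in the upper 2 deciles against median RNA log2 change, each vitamin C over untreated, with 1 point per chromosome and Y left out; neither axis starts at 0. Chromosome 17 is highest on both axes, at 0.443 and 0.29, and X has the lowest plotted score ratio, 0.297.

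PU.1 promoter peaks were then set beside the RNA of the same genes. RNA-seq gave 86804487 reads untreated and 111453443 with vitamin C over the listed genes, 1 library each. In the whole population of cells, fewer cells of a type and less RNA per cell cannot be told apart. All 9 markers fixed for HOXA9 myeloid progenitors were at 1 RPKM or more in both libraries, summing to 6666 RPKM untreated and 3198 RPKM with vitamin C. Hoxa9 (3062 and 1487 RPKM), Ctsg and Mpo made up most of this sum, while Ptprc had 65.1 and 61.2 RPKM and Itgam was the higher one with vitamin C. The cells were immortalized with HOXA9, and whether the Hoxa9 RNA came from the introduced gene was not tested. The 5 B cell markers summed to 0.212 and 0.0864 RPKM, with Pax5 and Ms4a1 at 0. Of 4 mast cell and basophil markers 3 reached 1 RPKM, and their sum was 1974 and 2634 RPKM, of which Cpa3 gave 1863 and 2488. Of 4 erythroid markers 1 reached 1 RPKM (sums 340 and 380 RPKM), of 3 megakaryocyte markers 2 (160 and 152 RPKM), of 5 T cell markers 1 (4.57 and 4.61 RPKM) and of 4 fibroblast markers 1 (28.0 and 17.2 RPKM). The part of such cells in the PU.1 values was not tested.

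A PU.1 peak within 1 kb of a start was listed for 4270 of 17492 genes untreated, 24.4%, and for 1924 genes with vitamin C, 11.0%. Genes with a peak in both lists were expressed at 1 RPKM or more in 88.9% of cases, those with an untreated peak only in 86.4%, and those with neither in 37.8%. Among the 8228 genes at 1 RPKM or more, 191 (2.32%) were at least 2-fold higher with vitamin C and 154 (1.87%) at least 2-fold lower, on the log2(RPKM + 0.5) scale. Genes with a promoter peak in both lists numbered 1579, of which 45 (2.85%, 2.09 to 3.79%) were higher and 16 (1.01%, 0.580 to 1.64%) lower. With an untreated promoter peak only there were 2022 genes, 39 (1.93%, 1.38 to 2.63%) higher and 24 (1.19%, 0.762 to 1.76%) lower. With neither, 106 (2.32%) of 4565 were higher and 112 (2.45%, 2.02 to 2.94%) lower. With a vitamin C promoter peak only, 1 of 62 genes was higher and 2 were lower, 3.23% (0.393 to 11.2%), too few to place. Lower RNA was thus less frequent among genes with an untreated promoter peak, shared or not, than among genes with none. Expression differed too, with median untreated RNA of 20.4 RPKM for a peak in both lists, 17.3 for untreated only and 12.7 for neither. Whether expression level accounts for the contrast was not tested. Genes that kept their peak and genes that did not had intervals that overlap in both directions. Of the 2022, 44 had a promoter peak that met a vitamin C peak lying just beyond the 1 kb window.

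Counts of peaks around the genes gave little separation. Within 50 kb of a start, the 191 higher genes had a median of 6 untreated and 3 vitamin C peaks, the 154 lower genes 5 and 2, and genes within 1.5-fold 5 and 2. The 6976 genes under 0.1 RPKM in both libraries had 2 and 0. In decile 9, 85.0% (78.2 to 90.4%) of peaks near higher genes were shared, 82.6% near genes within 1.5-fold and 80.4% near lower genes. Median score ratios in the upper 2 deciles were 0.380, 0.379 and 0.351. An untreated promoter peak was listed for 44.0% of the higher genes, 44.5% of those within 1.5-fold and 40 of the 154 lower genes, 26.0%.

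Spi1 itself, which encodes PU.1, had 105 RPKM untreated and 83.0 RPKM with vitamin C, a ratio of 0.789 (0.774 to 0.804, counting error only). Within 10 kb of its span lay 8 untreated and 4 vitamin C peaks, and 4 of the untreated peaks were shared. The strongest went from 35.6 to 21.9, at chr2:91082915-91083333, in H3K4me3 and under Runx1 in both conditions. Another 2 went from 30.9 to 7.39 and from 26.4 to 12.3, while the fourth, from 5.42 to 7.75, was higher with vitamin C. All of its peaks were in the H3K4me3 list of the same treatment except 1 with H3K27ac alone.

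Around the other myeloid transcription factors always described here, the top score was lower with vitamin C, and fewer peaks were listed for all but Cebpb, which had 1 in each list. Runx1, whose protein partners PU.1, had 15 untreated peaks and 10 with vitamin C within 10 kb of its span, with top scores of 121 and 44.3; its RNA was 52.5 and 66.3 RPKM. Irf8, which directs monocyte and dendritic cell fate with PU.1, had 5 untreated peaks and 1 with vitamin C, the strongest going from 45.4 to 3.30. Irf8 RNA was 3.32-fold lower with vitamin C (3.14 to 3.51), at 8.58 and 2.58 RPKM. Gfi1, a repressor that favours granulocytes, had 3 untreated peaks, the strongest at 24.9, none of which was shared, and a separate vitamin C peak of 4.11. Its RNA was 52.0 and 18.4 RPKM, 2.82-fold lower. Cebpe, a granulocyte factor, had top scores of 45.4 and 10.1 with 26.3 and 19.4 RPKM. Cebpa, which drives granulocyte and monocyte commitment, had 22.0 and 6.25 with 198 and 161 RPKM, and Cebpb, its relative in emergency granulopoiesis, 24.9 and 5.16 with 86.1 and 100.7 RPKM.

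Granule and progenitor genes with lower RNA did not share a PU.1 pattern. Mpo, which encodes myeloperoxidase, kept all 4 peaks near its span, the strongest from 37.1 to 16.4, while its RNA of 796 RPKM untreated was 6.10-fold lower at 131 RPKM. Kit, the SCF receptor, had 2 weak untreated peaks of up to 6.50 and none with vitamin C, with RNA 6.32-fold lower, from 32.1 to 5.07 RPKM. Ctsg, which encodes cathepsin G, had 3 weak untreated peaks of up to 4.01 and none with vitamin C, and 2101 and 1136 RPKM, 1.85-fold lower. Receptors varied as well. Csf1r, the M-CSF receptor, kept 5 of 6 peaks with top scores of 57.3 and 10.1 at 0.874 and 1.35 RPKM. Csf3r, the G-CSF receptor, had 3 weak untreated peaks, at most 4.39, and none with vitamin C, at 16.5 and 8.38 RPKM. Csf2ra, the GM-CSF receptor chain, had 2 untreated and 3 vitamin C peaks with top scores of 15.5 and 7.39, at 13.8 and 25.9 RPKM. Itgam, which encodes the CD11b integrin, kept only its 2 strongest of 9 peaks, from 103 to 50.3 and from 67.0 to 20.8, at 21.07 and 27.04 RPKM.

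Immediate early genes, which respond within minutes to signals, were much higher in RNA although their PU.1 scores were lower. Egr1, a zinc finger factor of macrophage differentiation, had 0.987 RPKM untreated and 88.4 RPKM with vitamin C, and its top PU.1 peak went from 99.1 to 27.6. Fos, an AP-1 subunit, had 0.187 and 74.5 RPKM, and its top peak, under Runx1 in both conditions, went from 75.1 to 16.3. Fosb had 0.205 and 26.9 RPKM with a peak of 129 and 37.6, and Dusp1, a phosphatase of MAP kinases on chromosome 17, had 5.00 and 69.8 RPKM with 50.5 and 19.1. In the list of 16 immediate early genes, 14 were at least 2-fold higher and 0 lower, beside 2.32% and 1.87% over all genes, and their median log2 change was 2.55 beside −0.04. Their peaks within 50 kb were shared in 42.5% of cases, near the 38.6% over all genes with a start. In the interleukin-1 receptors Il1r1 and Il1r2, RNA was at 0 untreated and at 0.00426 and 0.118 RPKM with vitamin C, and 4 untreated peaks at each, of up to 22.0 and 19.5, left 0 and 1 with vitamin C.

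Genes with a promoter peak and large RNA changes showed both kept and missing peaks in each direction. Among the higher ones, Cxcl2, a neutrophil chemokine, went from 0.764 to 40.4 RPKM with promoter scores of 14.2 and 11.0. Ier3, a stress-response gene on chromosome 17, went from 27.6 to 206 RPKM with 9.98 and 6.25. Clec11a, a stem cell growth factor, went from 1.79 to 68.2 RPKM with an untreated promoter peak of 3.40 that was not listed with vitamin C. Fos, Cma1 (0.359 to 14.6 RPKM), Fxyd4 (0.212 to 9.33 RPKM, PU.1 peak 101.6 to 37.8), Lif (6.23 to 47.4) and Ccl6 (3.36 to 25.4) completed the 8 highest. Among the lower ones, Gpr65, a proton-sensing receptor, went from 11.8 to 0.578 RPKM, 20.5-fold lower. Wfdc17, a gene of activated macrophages, went from 262 to 91.6 RPKM while its promoter score went from 60.8 to 2.86. Tfec was 3.86-fold lower. The rest were Mpo, Gm1110 (10.1 to 0.985 RPKM), Tut4 (5.60 to 0.747), H1f10 (9.95 to 2.64) and Gstk1 (5.61 to 1.53), the last with a vitamin C promoter peak of 5.57 and none untreated.

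Strong PU.1 sites also stood at myeloid genes with small RNA differences. Fcer1g, the common Fc receptor chain, had 603 and 608 RPKM with a peak of 226 and 57.7. Cpa3, a mast cell protease gene that was among the most abundant here, had 1863 and 2488 RPKM with 82.5 and 72.0. Ikzf1, a lymphoid and myeloid regulator, had a peak of 145 and 56.9 with 26.9 and 21.4 RPKM, and Cxcr2, a chemokine receptor of neutrophils, 119 and 49.1 with 1.87 and 2.60 RPKM. Mef2c, a MADS-box factor, had a promoter peak of 143 that met a vitamin C peak of 35.8, with RNA of only 0.117 and 0.149 RPKM. By contrast Il6ra, the IL-6 receptor, combined a peak of 170 and 17.7 with RNA of 1.79 and 0.293 RPKM.

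By gene group, promoter peaks were counted for members with an annotated start, and RNA for members at 1 RPKM or more. Over all genes with a start, 38.6% of 32489 untreated peaks within 50 kb were shared. Of those genes at 1 RPKM or more, 2.32% were at least 2-fold higher and 1.87% lower, with a median log2 change of −0.04. Myeloid transcription factors had 6 untreated and 3 vitamin C promoter peaks among 15 genes, 41.2% of peaks shared, and 3 higher and 2 lower of 18 in RNA, with a median log2 change of −0.25. Cytokine and growth factor receptors had 9 and 5 among 14, 43.4% shared, and 2 higher and 3 lower of 13 (median 0.18). Primary granule genes had 5 and 4 among 7, 46.7% shared, and 0 higher and 2 lower of 7 (median −0.29). Late granule genes had 1 and 1 among 10, with 30.4% shared and 0 of 4 at least 2-fold apart (median 0.13). Monocyte and macrophage genes had 11 and 9 among 15, 46.7% shared, and 5 higher and 2 lower of 21 (median 0.37). The NADPH oxidase had 2 and 1 among 3, with 61.1% shared and 0 of 5 at least 2-fold apart (median −0.06).

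Immediate early genes had promoter peaks for 5 and 3 of 13. Genes of the hypoxia response had 9 and 2 among 12, 44.6% of peaks shared, and 8 higher and 0 lower of 14 (median 1.19). Over all genes with a start the promoter counts were 4270 and 1924 of 17492. Among those at 1 RPKM or more, 2.32% were higher and 1.87% lower. Mast cell and basophil genes had 3 and 2 among 9, 45.8% shared, and 4 higher and 0 lower of 8 (median 0.83). Of the lineages that should be rare, B cell genes had 1 and 1 among 8 with 37.5% shared, T cell genes 3 and 2 among 9 with 22.2%, and erythroid genes 1 and 1 among 5 with 60%. At 1 RPKM or more were 1 B cell, 1 T cell and 2 erythroid genes, of which 1 erythroid gene was at least 2-fold higher. Housekeeping genes had 3 and 1 among 8, 35.1% shared, and 1 higher and 0 lower of 10 (median 0.02). These shares rest on few peaks per group, and nothing particular to a group is drawn from them.

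The lowest ratios within the top decile of untreated scores marked strong untreated sites with very weak vitamin C peaks. A peak in the span of Cdyl, a chromodomain corepressor gene, went from 148 to 2.07, a ratio of 0.0140. The next lay near Gm42166 (90.4 to 2.02), in Ube2h (54.0 to 1.49) and near Chil4 (103 to 2.86) and Rnase10 (77.0 to 2.19). These sites are counted as shared, since a weak vitamin C peak overlaps them, and they would count as untreated only under a slightly higher limit of the vitamin C list.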

How the data were processed

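PU.1 ChIP-seq was analysed in HOXA9-immortalized mouse cells with an IDH1 R132H vector, with 1 library untreated and 1 given vitamin C. The submitters' processing notes name BWA, SAMtools 0.1.2 and 0.1.16, Picard, MACS2 2.1.0.2 and mm10 without their role, and peak thresholds were not found in the labels or files. The authors deposited 1 peak list per library, with a score per PU.1 or Runx1 peak that is not defined, and with a p-value or q-value per histone peak, which of these is not stated. Methylation region lists hold positions only. For RNA-seq the authors deposited a read count and an RPKM value per gene without replicates, and 6 further columns were not used.

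Repeated intervals were dropped, keeping the highest score, overlap was 1 bp, and score deciles were cut within a list, with equal scores split by list order. Histone context came from the same treatment. Promoters were 1 kb around RefSeq start sites (GRCm38.p6), known for 17492 of 21887 protein-coding genes; Spi1, Cebpe, Csf1r and Egr1 had none and were described by their span with 10 kb each side. RNA change was log2 of RPKM + 0.5, for genes at 1 RPKM or more in 1 or both libraries. Ratios and folds given for single genes are RPKM ratios without the added 0.5. Of 22371 genes 20249 matched RefSeq. Shares carry exact Clopper-Pearson 95% intervals and RNA ratios exact binomial intervals, for counting error only. Overlap and interval code was tested on simulated data. Python 3.11.15, numpy 2.4.6, pandas 2.3.3, scipy 1.17.1 and matplotlib 3.10.9 were used.

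Named genes were the nearest genes of the 8 highest peaks of each class, up to 6 members per gene list by summed score, the 8 largest RNA changes in each direction at 5 RPKM or more with a promoter peak, and a set of myeloid genes. The pairs with the most extreme ratios were chosen after their values were seen. The peaks, the 13 gene lists (164 genes) and the markers were chosen with earlier results of these data known. Alternatives were an untreated list cut to equal length, the upper part of each list by score, other overlap rules, other histone lists, other RNA settings and, chosen after seeing the data, leaving out chromosome 17.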

Additional observations from a re-analysis of the deposited data

How the results depend on the processing

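No paired analysis was possible because each condition had 1 library and no result came from a test. The alternatives that took a share out of its 95% interval are given here; cutting the untreated list cannot move the histone shares of vitamin C peaks and says nothing of their stability. The share of untreated peaks found with vitamin C was 68.3% when the untreated list was cut to equal length and 31.7% with an overlap of 50% of both peaks. The share of vitamin C peaks found untreated was 68.9% at equal length, 94.1% in the upper 50% by score, 83.0% with the 50% overlap and 94.3% with centres within 250 bp. In H3K4me3, untreated peaks had 40.3% at equal length, 36.8% in the upper 50%, 32.8% with the histone list of the other treatment and 20.9% with the stronger 50% of histone peaks, and vitamin C peaks had 52.5, 41.5 and 28.1% for the last 3 of these. In H3K4me1 without H3K4me3 the untreated values were 21.9, 20.9, 13.04 and 11.6% and the vitamin C values 14.0, 20.0 and 7.57%. Outside the 3 lists they were 36.3, 40.9, 52.2 and 63.5% untreated and 30.8, 37.1 and 58.0% with vitamin C. At equal length the order outside turned, from 46.9% untreated and 41.9% with vitamin C to 36.3% and 41.9%. In H3K27ac the untreated values were 40.1, 36.6, 30.5 and 22.1% and the vitamin C values 49.5, 41.3 and 29.5%. Within 1 kb of a start, untreated peaks had 7.79% at equal length and vitamin C peaks 8.71% in the upper 50%. Within 500 bp the shares were 5.79% and 6.12%, and within 2 kb 9.98% and 11.1%. The order for H3K4me1 without H3K4me3 turned with the other treatment's histone list, from 20.4% untreated and 12.7% with vitamin C to 13.04% and 20.0%. These pairs set the PU.1 lists on different histone lists. On the untreated histone lists the shares were 20.4% and 20.0%, and on the vitamin C histone lists 13.04% and 12.7%. The shares of genes 2-fold higher or lower with a promoter peak in both lists or untreated only stayed within their intervals under each alternative tried, and so did these and the 8 peak shares without chromosome 17. Other promoter classes were not recomputed. ChIP depth is unknown, which limits every count of missing peaks.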

Other observations

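The following values were chosen after they were seen. Of 1005 microRNA hairpins, 279 (27.8%) had an untreated PU.1 peak within 5 kb and 131 (13.03%) a vitamin C peak, and 5 had a vitamin C peak without an untreated one. Near Mir223, a microRNA abundant in neutrophils, lay 2 untreated peaks and 1 with vitamin C, with top scores of 19.5 and 8.43. Near Mir142, a microRNA of blood cells, lay 4 and 1, with 37.2 and 24.9. Mir155, induced by inflammatory signals, had 1 and 1 with 13.7 and 12.3, and Mir146b had 4 and 2 with 43.5 and 13.6. Mir21a had 2 and 1 with 38.7 and 21.9. The highest score near any hairpin was at Mir6541, with 298 and 151.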
